A study of Mus musculus with 2 samples.

Results

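The basophil and mast cell genes are 7 mouse genes, Prss34, Mcpt8, Fcer1a, Ms4a2, Cpa3, Mcpt4 and Cma1, taken by symbol from the 27998 genes of both count tables. Each symbol matched 1 gene. They were read in 2 droplet single-cell RNA libraries (10x Genomics) of hindlimb muscle from Fsp1-Cre: R26R-EYFP mice. The day 28 library was taken 28 days after hindlimb ischemia surgery, and the day 0 library came from mice with no surgery. In both, cells were sorted as YFP+CD11b-, that is, cells that carry the lineage label switched on by Cre from the Fsp1 (S100a4) promoter and lack the myeloid surface protein CD11b. The label marks a cell that has used the Fsp1 promoter at some time and so is not limited to fibroblasts. Each group is 1 library, and the number of mice behind it is not given in the sources used here, so no difference between day 28 and day 0 has a replicate check and no test was made. Intervals are exact 95% intervals and cover counting error only.

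Basophils and mast cells are granulocyte lineages that carry the high-affinity receptor for IgE, store histamine and proteases in granules, and release them when bound IgE is crosslinked. Basophils are short-lived and mature in the bone marrow, whereas mast cells mature in tissues such as skin, gut wall and the connective tissue around muscle. In the mouse, Prss34 (mouse mast cell protease 11) and Mcpt8 (mouse mast cell protease 8) are serine proteases of basophil granules. Fcer1a and Ms4a2 encode the alpha and beta chains of the IgE receptor, which both lineages carry. Cpa3 is a carboxypeptidase of mast cell granules that is also made by basophils and by some early progenitors. Mcpt4 and Cma1 (mouse mast cell protease 5) are chymases of connective tissue mast cells, and Tpsb2 and Tpsab1 encode their tryptases.

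All positions are on mm10 (GRCm38), from GENCODE M21. Prss34 lies on chromosome 17 (25298394 to 25300165), Fcer1a on chromosome 1 (173221284 to 173227214), Ms4a2 on chromosome 19 (11615523 to 11623719) and Cpa3 on chromosome 3 (20215620 to 20242181). Mcpt8 (56082166 to 56085273), Mcpt4 (56059629 to 56062313) and Cma1 (55941451 to 55944675) share the protease locus of chromosome 14. There Mcpt8, a basophil gene, is 19.9 kb from Mcpt4, and Mcpt4 is 115 kb from Cma1. Reads that matched more than 1 of these related proteases may have been dropped or split, and how they were treated is not given in the sources used here.

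The 250 bases before the start of each gene, from RefSeq on GRCm38.p6, were searched on both strands for the motif of GATA factors, spelled AGATAA, or ending in G as AGATAG, or starting in T as TGATAA, or both as TGATAG. All 7 genes had a promoter window, and 6 of them held a match, the exception being Mcpt8, against 26.5% of the 32851 windows of this length. Gata2 is a GATA factor known to act in basophils and mast cells, but a match is only a run of letters and its use was not measured. The windows of Prss34, Ms4a2, Cpa3 and Cma1 are shown because the first 3 genes were high in the same cells and Cma1 was close to 0, yet each of the 4 held the motif. Capitals mark the matches, which read as TTATCT, or in Cma1 as CTATCT, where the match is on the other strand.
Prss34 (chr17:25298144-25298393, + strand): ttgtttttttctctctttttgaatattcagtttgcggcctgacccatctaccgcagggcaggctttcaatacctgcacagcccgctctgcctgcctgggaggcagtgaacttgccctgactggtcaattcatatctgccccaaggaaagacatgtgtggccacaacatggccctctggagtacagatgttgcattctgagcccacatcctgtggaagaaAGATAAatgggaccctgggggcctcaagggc
Ms4a2 (chr19:11623720-11623969, - strand): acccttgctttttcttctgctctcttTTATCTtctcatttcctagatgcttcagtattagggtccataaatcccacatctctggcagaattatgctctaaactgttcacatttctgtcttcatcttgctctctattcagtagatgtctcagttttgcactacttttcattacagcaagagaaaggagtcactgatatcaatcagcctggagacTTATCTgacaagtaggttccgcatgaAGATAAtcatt
Cpa3 (chr3:20242182-20242431, - strand): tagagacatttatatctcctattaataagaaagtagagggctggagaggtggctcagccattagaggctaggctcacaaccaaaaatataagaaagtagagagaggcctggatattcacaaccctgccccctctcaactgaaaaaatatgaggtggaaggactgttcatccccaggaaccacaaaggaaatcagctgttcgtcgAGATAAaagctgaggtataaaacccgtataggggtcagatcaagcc
Cma1 (chr14:55944676-55944925, - strand): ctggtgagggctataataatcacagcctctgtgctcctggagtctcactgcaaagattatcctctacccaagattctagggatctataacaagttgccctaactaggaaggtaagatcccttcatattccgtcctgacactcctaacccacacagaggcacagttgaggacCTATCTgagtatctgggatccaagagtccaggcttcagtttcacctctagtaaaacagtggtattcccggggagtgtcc
The match in Prss34 lay 31 bases before the start and that in Cpa3 46 bases before it. Ms4a2 held 3 matches, at 224, 37 and 11 bases. The match in Cma1 lay 79 bases before the start.

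The day 28 library had 2653 barcodes and 38785525 unique molecular identifiers (UMIs, counted molecules), with a median of 12265 UMIs per barcode. The day 0 library had 2668 barcodes and 19574562 UMIs, with a median of 4844. The day 28 library was thus the deeper, and shares of barcodes with a UMI are given also after each barcode was thinned to 3000 UMIs. The 2 libraries had 13 barcode sequences in common. Of the muscle markers, the stem cell and myoblast genes Myf5 and Myod1 had 0 UMIs in both libraries and Pax7 had 1 UMI in each. The muscle fibre genes were low but present, Ckm with 214 UMIs in 172 barcodes at day 28 and 163 in 54 at day 0, Acta1 with 19 and 170 UMIs, and Tnnt3 with 20 and 110. Fibroblast-like cells numbered 4 at day 28 and 12 at day 0, and most of the other cells carried markers of blood cells. S100a4, the gene whose promoter drives the Cre, had 12 UMIs at day 28 and 1 UMI at day 0 in the basophil-like cells described next, and Itgam, which encodes CD11b, had 1 and 3.

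Prss34, Mcpt8, Fcer1a, Ms4a2 and Cpa3 were concentrated in a small basophil-like cluster in both libraries. The cells were clustered without the 7 genes and 8 related proteases, so that their levels did not shape the clusters. Among the 21 clusters, 1 held most of the UMIs of these 5 genes, with 80 cells at day 28 and 34 at day 0 among 2580 and 2609 kept cells. It was called basophil-like because the 10 other basophil markers had the highest mean log2 level over the median of the other clusters. That score was 3.49, against 0.593 for the mast cell markers. Of the basophil markers 9 were detected in at least 10% of its cells. Its cells had a median of 9659 UMIs at day 28 and 8697.5 at day 0, so their depth was similar in both libraries. Of the UMIs in kept cells, it held 91.0% of Prss34 at day 28 and 98.1% at day 0. For Mcpt8 the shares were 86.0% at day 28 and 96.0% at day 0, and for Fcer1a they were 91.3% and 98.0%. It held 85.2% of Ms4a2 UMIs at day 28 and 93.5% at day 0. Cpa3 was the most spread of the 5, with 65.5% at day 28 and 81.9% at day 0. The cluster level of Prss34 was 384 times that of the highest other cluster at day 28 and 1692 times at day 0, among clusters of at least 20 cells, whereas for Cpa3 these factors were 15.2 and 23.8.

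**Figure D1:**
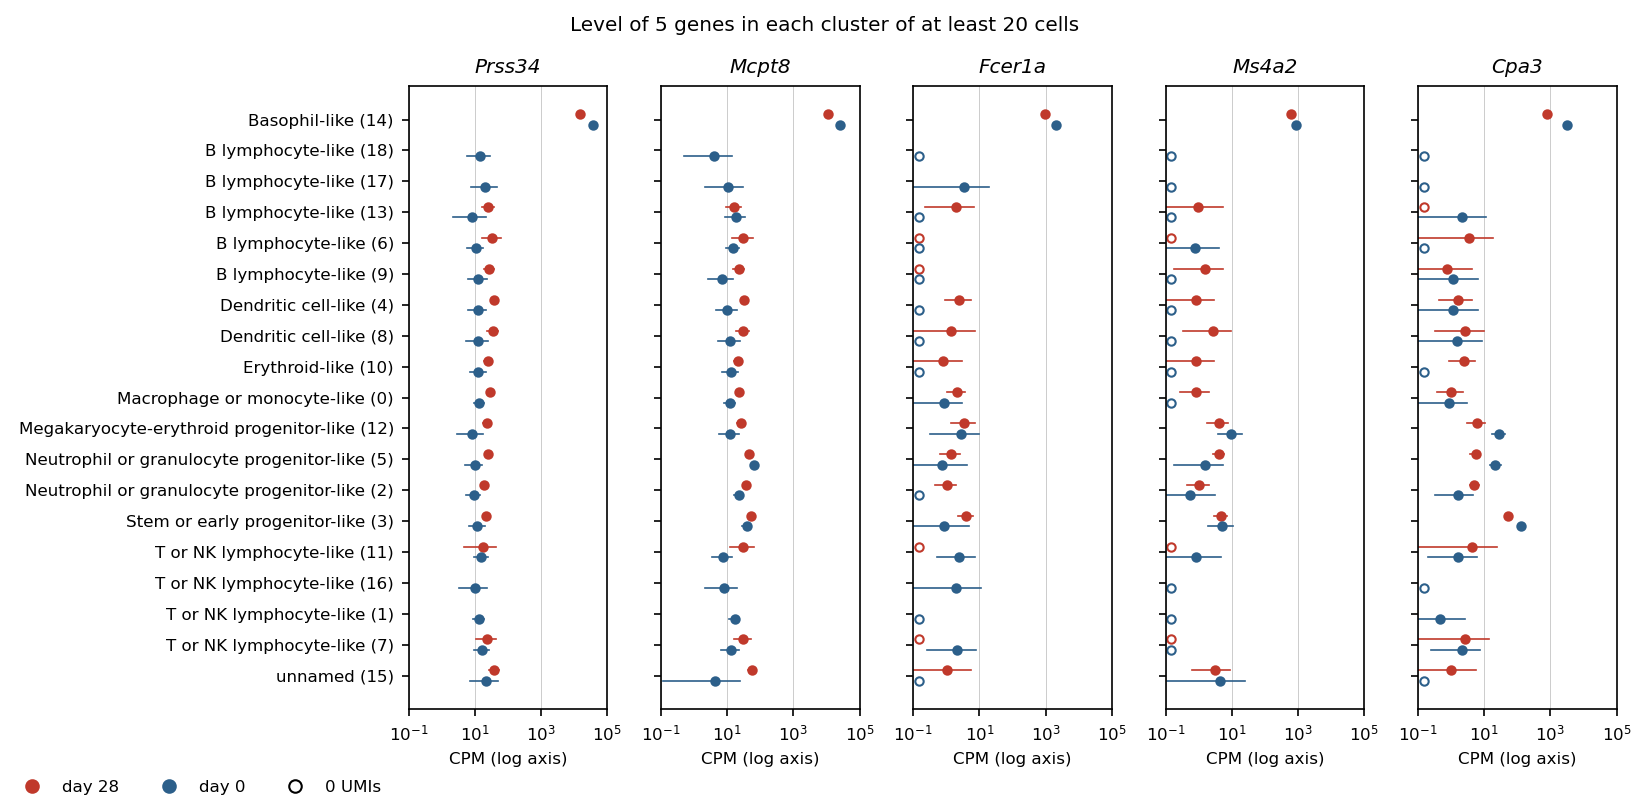
Counts per 1000000 UMIs (log axis) of Prss34, Mcpt8, Fcer1a, Ms4a2 and Cpa3 in each cluster with at least 20 cells in the library, with exact 95% counting intervals as lines, day 28 in red and day 0 in blue, and open circles for 0 UMIs. The basophil-like cluster is far above all others for every gene, and the stem or early progenitor-like cluster is next for Cpa3 in both libraries.

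Most UMIs of the proteases came from few barcodes. Prss34 and Mcpt8 together had 100 or more UMIs in 60 barcodes at day 28 and in 29 at day 0, and 58 and all 29 of these were basophil-like. Between 10 and 99 UMIs were found in 19 barcodes at day 28 and 4 at day 0. At the other end, 1329 barcodes at day 28 and 2170 at day 0 held neither gene, and 1033 and 438 held 1 or 2 UMIs. The barcodes with 100 or more UMIs held 87.4% of all UMIs of the pair at day 28 and 96.2% at day 0. Barcodes with at least 10 UMIs made up 2.98% of the day 28 library (79 barcodes, interval 2.36 to 3.70%) and 1.24% of the day 0 library (33 barcodes, interval 0.853 to 1.73%). The intervals did not overlap. After thinning these shares were 2.71% at day 28 and 1.16% at day 0. Among barcodes of at least 4175 UMIs, the lowest total at day 28, they were 2.98% and 1.83%, and those intervals did overlap (2.36 to 3.70% at day 28 and 1.24 to 2.60% at day 0). A difference between libraries in which cells were sorted or captured cannot be told apart from a difference between the groups.

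**Figure D2:**
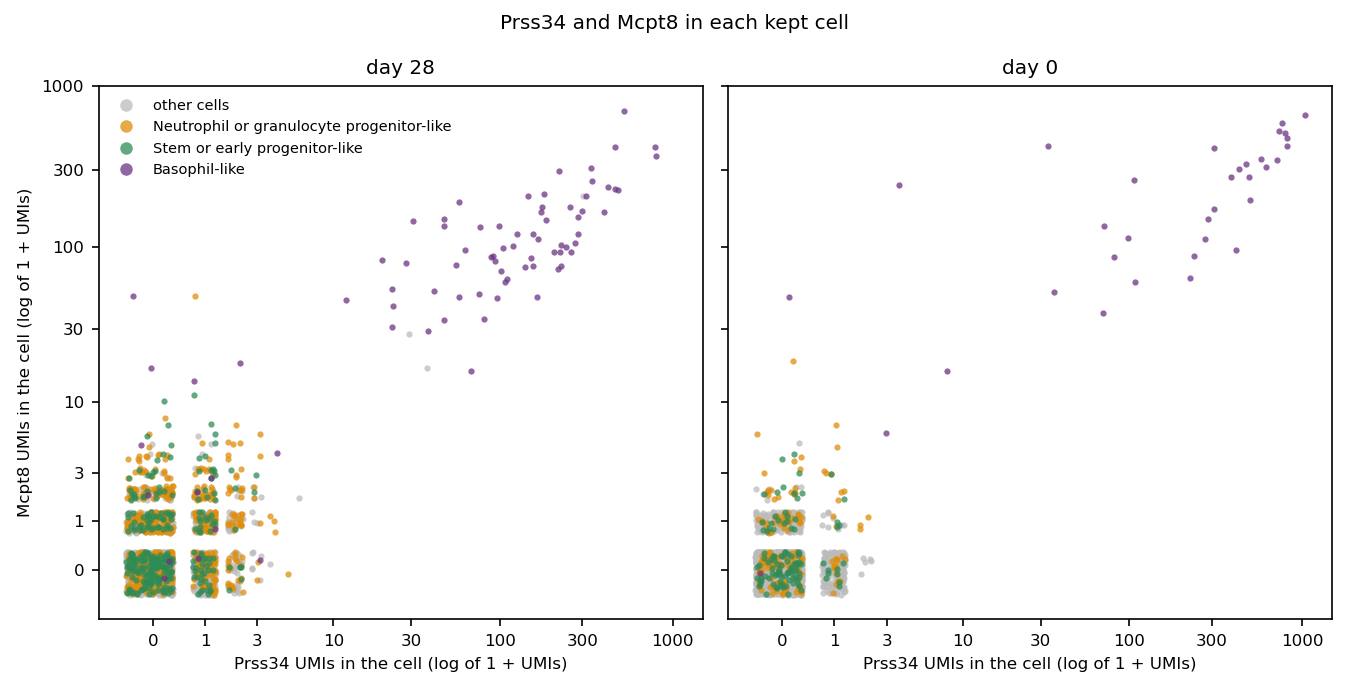
UMIs of Mcpt8 against UMIs of Prss34 in each kept cell (both axes log of 1 + UMIs, points shifted at random by up to 0.3 UMIs), day 28 on the left and day 0 on the right. Basophil-like cells run up the diagonal to 800 Prss34 UMIs at day 28 and 1034 at day 0, while most other cells have 0 to 2 UMIs of each gene and some progenitor-like cells have Mcpt8 with little or no Prss34.

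For Prss34, the low counts outside the cluster were near the level of cells that should lack the gene. Prss34 had a UMI in 29.5% of all barcodes at day 28 and 9.90% at day 0, and after thinning in 9.72% and 5.32%. B lymphocyte-like cells, which should lack Prss34, had it in 22.6% of 270 cells at day 28 and 7.04% of 597 at day 0 (median 8063 and 4311 UMIs per cell), and after thinning in 7.41% and 4.69%. As counts per 1000000 UMIs of the cells named (CPM), Prss34 kept over the other clusters to 17.7 to 38.7 CPM at day 28 and 8.19 to 22.2 at day 0. Whether barcodes with 1 or 2 Prss34 UMIs held stray RNA or a low level of their own was not tested.

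In the whole libraries the direction of the difference in the proteases depended on how barcodes were weighted. Summed over all barcodes, Prss34 had 358 CPM at day 28 and 617 at day 0 (ratio 0.579, interval 0.565 to 0.594). Mcpt8 had 281 at day 28 and 434 at day 0 (ratio 0.647, 0.629 to 0.666), and Fcer1a had 23.0 and 32.6 (ratio 0.704, 0.635 to 0.780). Ms4a2 was near equal, with 15.7 at day 28 and 15.0 at day 0 (ratio 1.05, 0.910 to 1.21). Cpa3 was the only one of the 5 at least 2-fold lower at day 28, with 27.2 CPM against 62.9 at day 0 (ratio 0.433, 0.398 to 0.470), where 5.32% of the 6975 genes at a mean of 10 CPM or more were. None of the 5 was at least 2-fold higher, where 0.717% of those genes were. When each barcode was thinned to 3000 UMIs and so counted alike, the log2 ratio was 0.10 for Prss34, 0.24 for Mcpt8, 0.55 for Fcer1a and 0.84 for Ms4a2, all higher at day 28, whereas Cpa3 stayed lower at -0.56. With each barcode's own CPM averaged, the signs were the same as after thinning. The median log2 ratio over all genes was -0.03.

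Within the basophil-like cells all 5 genes were lower at day 28. Per cell, Prss34 ran from 0 through a median of 102 to 800 UMIs at day 28 and from 0 through 296.5 to 1034 at day 0. Summed over these cells, Prss34 had 14849 CPM at day 28 and 37575 at day 0 (ratio 0.395, 0.385 to 0.405). The cells of both libraries overlapped widely, since each held cells with 0 Prss34 UMIs. Mcpt8 had a median of 87 UMIs per cell at day 28 and 219.5 at day 0, with 11007 and 25844 CPM (ratio 0.426, 0.413 to 0.439). Its cells overlapped over almost the whole range, 0 to 700 UMIs at day 28 and 0 to 661 at day 0.

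The receptor chains were detected in nearly every basophil-like cell. Fcer1a, the IgE-binding alpha chain, was found in 73 of 80 cells at day 28 and in all 34 at day 0, with 944 and 1977 CPM (ratio 0.477, 0.429 to 0.531). Ms4a2, the beta chain that amplifies the signal, was found in 78 of 80 cells at day 28 and in all 34 at day 0, with 601 and 867 CPM (ratio 0.694, 0.598 to 0.807). Its median per cell was 6 UMIs at day 28 and 7 at day 0. The third chain, Fcer1g, shared with other Fc receptors, had 921 CPM at day 28 and 1679 at day 0 (ratio 0.549, 0.490 to 0.614). Cpa3 showed the greatest difference of the 5, with 799 CPM at day 28 and 3152 at day 0 (ratio 0.253, 0.229 to 0.280). The median cell had 6 Cpa3 UMIs at day 28 and 23 at day 0, and the highest cells had 52 and 135.

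Of these 5 genes, 4 were at least 2-fold lower at day 28, where 7.51% of the 2290 genes at a mean of 50 CPM or more in these cells were, and 1.22% were at least 2-fold higher. For Fcer1a the interval reached past the 2-fold bound. The median log2 ratio of those 2290 genes was -0.16, against -1.23 for the 5. All 5 were lower at day 28 under each setting run. Among cells with at least 10 UMIs of Prss34 and Mcpt8 together, 70 at day 28 and 32 at day 0, the log2 ratio was -1.22 for Prss34, -1.11 for Mcpt8 and -1.96 for Cpa3. Prss34 and Mcpt8 themselves set this choice of cells, so of these ratios only that of Cpa3 is for a gene not used in it.

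**Figure D3:**
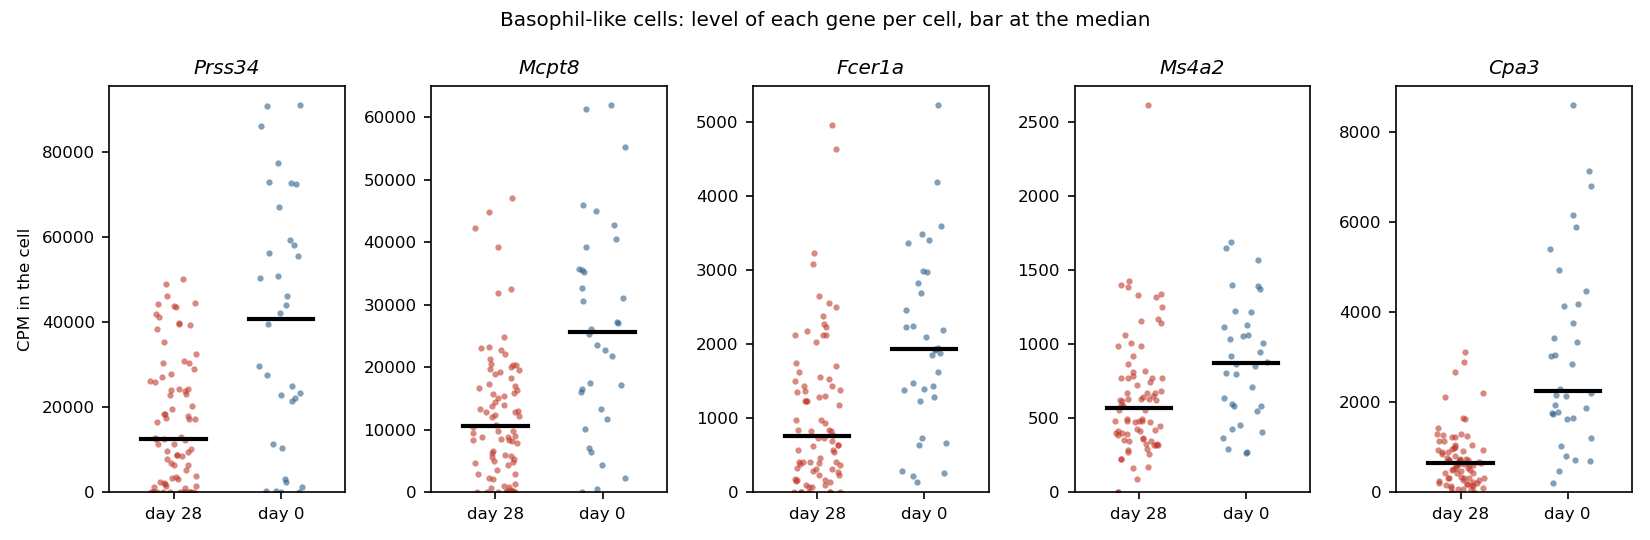
CPM in each of 80 basophil-like cells at day 28 (left in each panel) and 34 at day 0 (right), with a bar at the median. The medians are lower at day 28 for all 5 genes (12648 against 40814 for Prss34 and 644 against 2244 for Cpa3), while the cells of the libraries overlap in every panel.

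The basophil-like cells were not uniform. Across cells Prss34 went with Mcpt8 (Pearson r = 0.84 over 80 cells at day 28 and 0.77 over 34 at day 0, on the level per cell), less with Ms4a2 (0.36 and 0.31), and weakly in the opposite direction with Cd34, a marker of progenitors (-0.25 and -0.20). These are descriptions, since the cells of a library share its depth and capture. Cells with a Cd34 UMI (27 at day 28, 17 at day 0) had 10629 CPM of Prss34 at day 28 and 31761 at day 0. Cells without one had 17991 at day 28 and 46907 at day 0. Cells with a Cd34 UMI were also deeper (median 12469 UMIs at day 28 and 10591 at day 0) than those without (7856 and 6781). The lower level at day 28 was thus seen in cells with and without Cd34.

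A small number of basophil-like cells had little of either protease. At day 28, 10 of the 80 cells held fewer than 10 UMIs of Prss34 and Mcpt8 together, and at day 0, 2 of 34 did. The 10 cells at day 28 had 448 CPM of Ms4a2 (57 UMIs, in 8 cells) and 448 of Cpa3 (57 UMIs, in all 10), against 86.5 of Prss34 (11 UMIs) and 134 of Fcer1a. The 2 cells at day 0 had 663 of Ms4a2, 829 of Cpa3 and 249 of Fcer1a. The 10 cells at day 28 had a Gata2 level of 244 CPM, and no UMI of Tpsb2. Ms4a2 and Cpa3 were thus present in cells with almost no Prss34. These cells were singled out after their values were seen.

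The chymases of mast cells were close to absent. Mcpt4 had 3 UMIs at day 28 and 0 at day 0, and Cma1 had 7 and 2. Each of these 12 UMIs was in a barcode of its own, no barcode held both genes, and none held 3 UMIs of either. With 0 such barcodes, 3 counts of the total allow a share of up to 0.113% at day 28 and 0.112% at day 0, and the exact interval reaches 0.139% and 0.138%. Of the 12 barcodes, 1 was basophil-like, and it carried 62 Prss34 and 95 Mcpt8 UMIs beside its 1 Cma1 UMI. The others were spread over T or NK, B, dendritic, macrophage, granulocyte progenitor, stem and unnamed clusters. For Cma1 the ratio was 1.77, with an interval from 0.336 to 17.4, so no difference could be seen at this depth, and for Mcpt4 no ratio is given.

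Other mast cell genes followed the same split. Tpsb2, which encodes a tryptase, had 2 UMIs at day 28 and 0 at day 0, and the tryptase Tpsab1, the receptor genes Mrgprb1 and Mrgprb2, Mcpt1, Mcpt9 and Tph1 had 0 in both libraries. Mitf, a transcription factor needed by mast cells, had 0 UMIs in the basophil-like cells of both libraries. Kit, the receptor for stem cell factor, which mast cells keep and mature basophils lose, had 19 UMIs in 14 of the 80 cells at day 28 and 5 UMIs in 5 of 34 at day 0. Genes that mast cells and basophils share were present, among them Cd63 (1261 CPM at day 28 and 2308 at day 0), the histamine transporter gene Slc18a2 (63.5 and 76.2) and Il1rl1, the receptor for IL-33 (50.3 and 54.0). Of 11 mast cell markers, 4 had any UMI in these cells at day 28 and 3 at day 0, summing to 138 and 146 CPM. The 10 basophil markers summed to 1710 at day 28 and 3371 at day 0, and only Itga2 had none.

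Members were also read in progenitor-like cells, and there they separated from each other. In the stem or early progenitor-like cluster (302 cells at day 28 and 112 at day 0, median 12122.5 and 8568.5 UMIs), Cpa3 had 52.5 CPM at day 28 (45.8 to 59.9) and 133 at day 0 (113 to 155). It was found in 21.9% of these cells at day 28 and 25% at day 0, and after thinning in 9.60% and 16.1%. In B lymphocyte-like cells the Cpa3 shares were 0.741% at day 28 and 0.335% at day 0, and after thinning 0.741% and 0%. Without the cell highest in Cpa3 the levels were 48.0 at day 28 and 119 at day 0. Cpa3 was also found at day 0 in the megakaryocyte-erythroid progenitor-like cluster, at 27.3 CPM (16.7 to 42.2, 20 UMIs), against 6.03 at day 28 (3.12 to 10.5, 12 UMIs). At day 0, 1 cell held 6 of those 20 UMIs, and the interval counts them as independent.

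Mcpt8 was also higher in stem or early and granulocyte progenitor-like cells than in B lymphocyte-like cells, and Prss34 was not. Mcpt8 had 53.4 CPM in the stem or early progenitor-like cluster at day 28 (46.6 to 60.9) and 39.1 at day 0 (28.6 to 52.2). In neutrophil or granulocyte progenitor-like cells, 670 at day 28 and 156 at day 0, it had 41.0 (37.7 to 44.4) and 38.9 (32.4 to 46.3). In B lymphocyte-like cells Mcpt8 had 20.8 at day 28 and 11.7 at day 0. These are low for day 28, where the other clusters of at least 20 cells ran from 16.2 to 55.0 with a median of 30.9. At day 0 they ran from 4.01 to 64.3 with a median of 12.4. An unnamed cluster led by Jchain, an immunoglobulin chain gene of plasma cells, had 55.0 (41.3 to 71.7) at day 28, from 85 cells, and 4.44 (0.112 to 24.7) at day 0, from 27 cells. Prss34 had 21.7 in the stem or early progenitor-like cluster at day 28 and 11.9 at day 0, inside its range over the other clusters. After thinning, Mcpt8 was found in 11.9% of the stem or early progenitor-like cells at day 28 and 10.7% at day 0, against 5.56% and 2.68% of B lymphocyte-like cells, and Prss34 in 6.95% and 3.57%, below its 7.41% and 4.69% there.

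The receptor chains had few UMIs in the same cells. In the stem or early progenitor-like cluster Ms4a2 had 4.77 CPM at day 28 (2.91 to 7.37, 20 UMIs) and 5.10 at day 0 (1.87 to 11.1, 6 UMIs, all in 1 cell), against 1.13 (0.234 to 3.31) and 0.291 in B lymphocyte-like cells. Fcer1a had 3.82 CPM there at day 28 (2.18 to 6.20, 16 UMIs) and 0.850 at day 0 (1 UMI), against 0.755 and 0.291 in B lymphocyte-like cells. In neutrophil or granulocyte progenitor-like cells Ms4a2 had 2.42 CPM at day 28 (1.69 to 3.37) and 0.925 at day 0 (0.191 to 2.70), and Fcer1a had 1.18 and 0.308. In 1 cluster of that class Ms4a2 reached 4.11 at day 28. The megakaryocyte-erythroid progenitor-like cluster had 9.56 CPM of Ms4a2 at day 0, from 7 UMIs all in 1 cell, and 8 UMIs at day 28. Fcer1a had 3.52 CPM there at day 28 and 2.73 at day 0, from 7 and 2 UMIs. The thinned share of stem or early progenitor-like cells was 0.993% at day 28 and 0.893% at day 0 for Ms4a2, and 1.66% and 0% for Fcer1a.

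The ratios of UMIs to those of Prss34 also differed between basophil-like cells and the stem or early and granulocyte progenitor-like cells. In basophil-like cells there were 0.741 Mcpt8 UMIs per Prss34 UMI at day 28 (0.721 to 0.762) and 0.688 at day 0 (0.669 to 0.708). B lymphocyte-like cells had 0.764 (0.528 to 1.10) and 0.952 (0.602 to 1.5), macrophage or monocyte-like cells 0.792 and 0.906, and erythroid-like cells 0.885 and 1 at day 28 and day 0. All of these intervals held 0.741 at day 28, and at day 0 they held 0.688. So did those of the T or NK lymphocyte-like class, 0.724 (0.608 to 0.861) and 0.882 (0.613 to 1.27). Single clusters outside the progenitors did not all do so. The unnamed cluster led by Jchain had 1.42 (0.921 to 2.21) at day 28, and 1 T or NK lymphocyte-like cluster had 1.25 (0.739 to 2.13) at day 0. The stem or early progenitor-like cells had 2.46 at day 28 (1.92 to 3.18) and 3.29 at day 0 (1.77 to 6.47), and the neutrophil or granulocyte progenitor-like cells had 1.86 (1.62 to 2.14) and 4.06 (2.73 to 6.23). Megakaryocyte-erythroid progenitor-like cells had 1.10 (0.733 to 1.67) at day 28 and 1.5 (0.477 to 5.12) at day 0. Their intervals held the basophil-like values. For Cpa3 there were 0.0538 UMIs per Prss34 UMI in basophil-like cells at day 28 and 0.0839 at day 0, against 2.42 and 11.1 in stem or early progenitor-like cells. In megakaryocyte-erythroid progenitor-like cells there were 0.25 (0.121 to 0.478) and 3.33 (1.29 to 10.1). The stem or early progenitor-like cells held 20 Ms4a2 UMIs and 91 Prss34 UMIs at day 28 (interval of the ratio 0.128 to 0.360), and 6 and 14 at day 0 (0.135 to 1.19), against Ms4a2 ratios of 0.0405 (0.0370 to 0.0443) and 0.0231 (0.0204 to 0.0260) in basophil-like cells. The 6 Ms4a2 UMIs at day 0 were all in 1 cell. Their interval counts them as independent and so cannot show a difference between the classes at day 0. Ms4a2 ratios at day 28 were also higher in granulocyte progenitor-like cells (0.110, 0.0753 to 0.156) and in megakaryocyte-erythroid progenitor-like cells (0.167, 0.0681 to 0.355). At day 0 these 2 classes had 0.0968 (0.0189 to 0.310) and 1.17 (0.336 to 4.20), the second from 7 UMIs in 1 cell. For Fcer1a the stem or early progenitor-like cells had 0.176 (0.0964 to 0.301) at day 28 and 0.0714 (0.00169 to 0.469) at day 0, against 0.0636 and 0.0526, so that at day 0 the intervals overlapped. In cells with UMIs of both Cd34 and Kit outside the basophil-like cluster, chosen by those 2 genes alone, there were 2.25 Mcpt8 UMIs per Prss34 UMI at day 28 and 3.44 at day 0, and 1.09 and 4.69 Cpa3 UMIs.

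**Figure D4:**
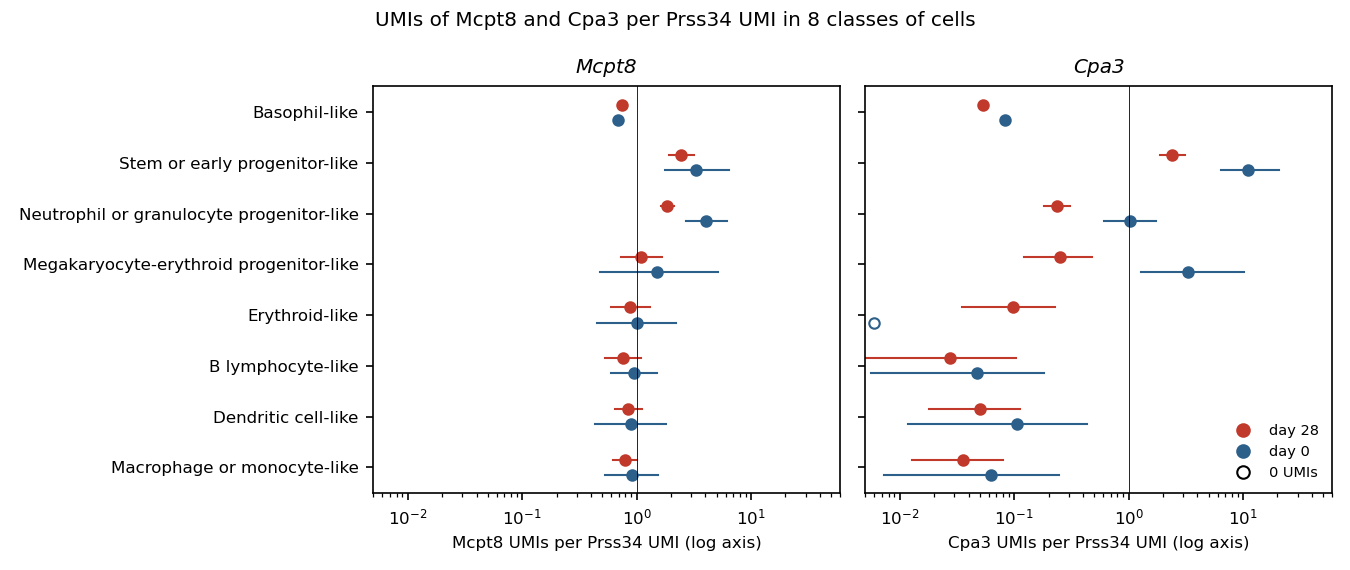
UMIs of Mcpt8 (left) and of Cpa3 (right) per Prss34 UMI (log axis) in 8 classes of cells, with exact 95% counting intervals, day 28 in red above day 0 in blue, and an open circle for 0 UMIs. Stem-like and granulocyte progenitor-like cells lie to the right of basophil-like cells for both genes, while erythroid, B, dendritic and macrophage-like cells have Mcpt8 ratios near those of basophil-like cells. Megakaryocyte-erythroid progenitor-like cells lie to the right for Cpa3, while their Mcpt8 intervals hold the basophil-like ratios.

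The progenitor-like cells highest in Mcpt8 are given as a description, since they were picked for that gene. A granulocyte progenitor-like cell at day 28 had 49 Mcpt8 UMIs and 1 Prss34 UMI, and another at day 0 had 19 and 0. At least 3 Mcpt8 UMIs were found in 49 of 670 granulocyte progenitor-like cells at day 28 and in 11 of 156 at day 0. Prss34 was detected in 23 of those 49 cells and in 5 of those 11. At least 3 Prss34 UMIs were found in 11 granulocyte progenitor-like cells at day 28 and in 0 at day 0. The cells with at least 3 Mcpt8 UMIs were deep (median 28064 UMIs at day 28 and 26189 at day 0). In the stem or early progenitor-like cluster, 27 cells at day 28 and 4 at day 0 had at least 3 Mcpt8 UMIs, and Prss34 was detected in 14 and 1 of them. At least 3 Prss34 UMIs were found in 2 cells of that cluster at day 28 and in 0 at day 0.

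Cells of the stem or early progenitor-like cluster with at least 3 Cpa3 UMIs, 27 at day 28 and 16 at day 0, held 75.9% and 89.7% of the cluster's Cpa3 UMIs. The following values describe other genes in cells so chosen. Hdc, which encodes the enzyme that makes histamine, had 87.0 CPM in them at day 28 and 154 at day 0, against 17.4 and 10.6 in the cluster's cells with no Cpa3 UMI. Mcpt8 had 104 in them at day 28 and 82.2 at day 0, against 37.1 and 28.2. Prss34 had 25.1 (13.4 to 43.0) and 5.14 (0.130 to 28.6), with intervals that overlapped those of the cells with no Cpa3 UMI, 20.3 (15.6 to 26.0) at day 28 and 14.1 (7.30 to 24.7) at day 0. Ms4a2 was found in 3 of the 27 cells at day 28 and 1 of the 16 at day 0, and Fcer1a in 2 and 0. Elane, a neutrophil protease gene, was high in them too (2400 at day 28 and 1870 at day 0), against 591 and 247 in the cells with no Cpa3 UMI. At day 0, 219 of its 364 UMIs were in 1 cell, and 10 of the 16 cells had any. Neither Mcpt4, Cma1, Tpsb2 nor Cd200r3 had a UMI in the cells with at least 3 Cpa3 UMIs. The cells with at least 3 Cpa3 UMIs were deeper (median 19666 UMIs at day 28 and 10150.5 at day 0) than those with none (10964.5 and 7483), and the part of depth was not tested.

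Across clusters of at least 20 cells, 15 at day 28 and 19 at day 0, the genes most like Prss34 were Cd200r3 (r = 0.996 and 0.996), which encodes an activating receptor of basophils, the cytokine genes Il4 (0.99 and 0.99) and Il6 (0.98 and 0.99), and Alox5 (0.99 and 0.97), the first enzyme of leukotriene synthesis. The measure was Pearson's r of log2 levels with 10 CPM added, and each r rests largely on the basophil-like cluster, which was far above the others. Cd200r3 was also the first for Mcpt8, Fcer1a and Ms4a2. For Cpa3 the first were Fgf3 (0.99 and 0.98) and Slc18a2 (0.98 and 0.98), and Prss34 itself followed Cpa3 less closely (0.90 and 0.86).

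Other genes of basophils in the basophil-like cells were more often lower than higher at day 28. In these cells 11.1% of the 6526 genes at a mean of 10 CPM or more were at least 2-fold lower at day 28, and 6.54% were at least 2-fold higher. Of 15 other basophil genes 14 were measured, that is, at a mean of 10 CPM or more, and of these 8 were at least 2-fold lower and 0 higher, with a median log2 ratio of -1.11 against -0.14 over those 6526 genes. Ifitm1 had 523 CPM at day 28 and 1378 at day 0 (ratio 0.380, 0.332 to 0.435). Hdc had 438 and 1038 (ratio 0.422), and Gata2 had 429 and 784 (ratio 0.547). Cd200r3 had 117 and 333 (ratio 0.352, 0.265 to 0.468), and Il4 had 70.7 and 114 (ratio 0.618, 0.402 to 0.964). The extremes were Grm6 at a ratio of 1.45 (0.573 to 4.34) and Il13 at 0.0419, from 1 and 9 UMIs.

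Among 14 measured mediator genes of 18 listed, 7 were at least 2-fold lower at day 28 and 1 was higher, with a median log2 ratio of -1.02. Over the 6526 genes the shares were 11.1% lower and 6.54% higher. The chemokine genes Ccl4 (1077 CPM at day 28 and 3187 at day 0) and Ccl3 (1041 and 2980) were among the lower ones, with ratios of 0.338 and 0.349. Srgn, the core protein of granule proteoglycans, had 2028 and 2727 (ratio 0.744). Ptgs2, an enzyme of prostaglandin synthesis, was the higher one, at 38.3 against 12.7 (ratio 3.02, 1.07 to 11.7, from 32 and 4 UMIs). Of 11 measured transcription factor genes, of 15 listed, 3 were lower and 1 was higher, with a median of -0.39. Cebpb had 284 at day 28 and 787 at day 0 (ratio 0.361), Cebpa had 263 and 381 (ratio 0.692), Gata1 was lowest at a ratio of 0.293, and Irf8 was highest at 3.02 from 16 and 2 UMIs.

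Genes of IgE receptor signalling had a median log2 ratio of -0.74 and those of cytokine receptors one of -0.42, against -0.14 over the 6526 genes. Of those 6526 genes 11.1% were at least 2-fold lower at day 28 and 6.54% higher. Of 15 signalling genes, 2 were at least 2-fold lower, Plcg2 at 0.453 (0.179 to 1.17) and Prkcd at 0.466 (0.290 to 0.755). The 1 that was higher was Gab2 at 3.40 (0.813 to 30.2), from 18 and 2 UMIs. The adaptors Lat2 and Lat had ratios of 0.551 and 0.654. Of 9 measured cytokine receptor genes, of 12 listed, 2 were lower, Il7r at 0.0539 from 1 and 7 UMIs and Il18r1 at 0.377 (0.141 to 1.01). Crlf2, a chain of the TSLP receptor, had 190 CPM at day 28 and 210 at day 0 (ratio 0.909, 0.678 to 1.23). Il3ra, the alpha chain of the receptor for IL-3, had 145 and 194 (ratio 0.749, 0.546 to 1.04), and Csf2rb, its signalling chain, had 105 and 146 (ratio 0.722, 0.5 to 1.05). The intervals of these 3 receptor ratios held 1, as did those of Plcg2, Gab2 and Il18r1.

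Granule proteases of other lineages were detected in the basophil-like cells and did not all go the same way. Ctsg, cathepsin G, had 1543 CPM at day 28 and 3317 at day 0 (ratio 0.465), and Mpo, myeloperoxidase, had 1312 and 2190 (ratio 0.599). Prtn3 had 533 and 171 (ratio 3.11, 2.34 to 4.21) and Elane had 419 and 149 (ratio 2.81, 2.07 to 3.90). In all other kept cells Elane had 2749 at day 28 and 1695 at day 0, so its level in the basophil-like cells was below that of the rest, and the part of free RNA in it was not tested. Of 7 measured genes in this list of 14, 3 were at least 2-fold lower at day 28 and 2 were higher, with a median log2 ratio of -0.74, Gzmb being lowest at a ratio of 0.232. Over the 6526 genes the shares were 11.1% lower and 6.54% higher.

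Of 7 measured mast cell genes in these cells, of 16 listed, 1, Hdc, was at least 2-fold lower, their median log2 ratio was -0.26, and the highest ratio was that of Kit, 1.43 (0.518 to 4.91). Of 10 measured stem and progenitor genes, of 13 listed, 0 were lower and 1 was higher, Myct1 at 2.64 (0.607 to 23.9), with a median log2 ratio of 0.44. Over the 6526 genes 11.1% were at least 2-fold lower and 6.54% higher. The counts in the mast cell and stem lists were near those shares, and the intervals for Kit and Myct1 held 1. Cdk6, a cell cycle kinase, had 393 CPM at day 28 and 260 at day 0 (ratio 1.51, 1.18 to 1.95), Sox4 had 236 and 187 (ratio 1.26), and Cd34 had 55.1 and 95.2 (ratio 0.579, 0.358 to 0.949). Of 10 eosinophil genes only Alox15 and Siglecf were measured, both at least 2-fold lower at day 28. Their ratios were 0.283 (0.175 to 0.455) and 0.485 (0.228 to 1.05). Several genes stand on more than 1 of these lists, so the counts are not independent.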

How the data were processed

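Single cells sorted from hindlimb muscle were profiled in 1 library at day 28 and 1 at day 0. The authors deposited a table of raw UMI counts, whole numbers with no normalisation. Cell Ranger 2.1.1, STAR (version not given in the sources used here) and build mm10 are named in the submitters' processing notes. Barcodes under 4175 UMIs at day 28 and 3001 at day 0 are not in the tables. The 7 genes and all lists were chosen with earlier results of these data known.

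Levels per library use all 5321 barcodes. For clusters, barcodes with at least 500 genes and at most 10% mitochondrial counts were kept, which removed 17 at day 28 and 2 at day 0. Scrublet's own threshold marked 0.302% and 0.150% of barcodes, too few to use, so the highest scores were removed at a rate of 0.8% per 1000 barcodes (56 at day 28 and 57 at day 0). The 7 genes and 8 related proteases were left out, and 2000 variable genes, 30 components, 20 neighbours and Leiden resolution 0.8 (scanpy 1.11.5, leidenalg 0.10.2) gave 21 clusters. Classes were rebuilt from marker lists and are not the authors' annotation. The rule for a name was set after the data were seen. It took the marker list with the highest mean log2 level over the median of the other clusters, past a set minimum. At least 3 of its markers had to be in at least 10% of cells. No other list could have more markers among the cluster's top 10 genes, and a top gene that was a marker had to be of the list. Levels are counts per 1000000 UMIs of the cells named (CPM), with exact Poisson, Clopper-Pearson or conditional binomial intervals (scipy 1.17.1). The UMI is counted at the 3' end of a transcript, so no length correction was made. No test was run between libraries. Ratio and interval code was tested on simulated data.

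Genes named are the 7, defining markers, the 8 most alike genes per member (the first given here), and per list the 3 highest by level and those with the highest and lowest ratio. Other names were chosen after their values were seen. A gene was counted as measured at a mean of 10 CPM or more. Settings tried were thinning, kept cells, matched lowest depth, equal weight per barcode, the top barcode left out, other resolutions, clustering with the members, no doublet removal, other UMI minimums and another pseudocount.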

Additional observations from a re-analysis of the deposited data

How the results depend on the processing

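No paired analysis was possible because each group had 1 library. The log2 ratios of day 28 over day 0 over all barcodes changed most. After thinning they were 0.10 (Prss34), 0.24 (Mcpt8), 0.55 (Fcer1a), 0.84 (Ms4a2) and -0.56 (Cpa3). With equal weight per barcode they were 0.11, 0.27, 0.38, 0.85 and -0.56 in that order. With barcodes of at least 4175 UMIs they were -1.04, -0.88, -0.74, -0.18 and -1.48. Without the top barcode Prss34 was at -0.74. Thinning and equal weights count shallow barcodes like deep ones by construction. Barcodes with any member UMI made up 20.5% at day 28 and 10.9% at day 0 after thinning, and 27.5% at day 0 at matched lowest depth. Barcodes with at least 3 UMIs of Prss34 and Mcpt8 made up 3.05% at day 28 and 1.31% at day 0 after thinning, and 3.48% at day 0 at matched lowest depth. With a minimum of 1 UMI the shares were 49.9% and 18.7%, and with 10 they were 2.98% and 1.24%. Barcodes with at least 1 chymase UMI were 0.377% at day 28. After thinning, 35.7% of Prss34 barcodes at day 28 held Mcpt8. Within the basophil-like cells the Prss34 ratio was -1.20 with members kept in clustering, thinned, or with equal weights, -1.22 in cells with 10 or more protease UMIs and -1.38 in cells without Cd34. For Mcpt8 these were -1.10, -1.09, -1.06, -1.11 and -1.16. Fcer1a was at -0.79 thinned and -0.80 without Cd34. At resolution 1.2, Cpa3 in progenitor-like cells was 162 CPM at day 0, and 4 of its 8 most alike genes were shared. With no doublet removal the cluster highest in Prss34 and Mcpt8 had 90 cells at day 28 and 38 at day 0. That cluster held all 114 basophil-like cells but was left unnamed by the naming rule. The cause of the other moves was not tested. The cell sets with 10 or more UMIs, without Cd34 or without the top cell were chosen after seeing the data. The set with 10 or more UMIs was chosen by the counts of Prss34 and Mcpt8 themselves. For absence of the chymases the floor was 3 counts over all barcodes of a library. That is 0.113% of barcodes at day 28 and 0.112% at day 0.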

Other observations

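Some barcodes with both proteases lay outside the basophil-like cluster, and they are given here as values. At day 28 a cell in a T or NK lymphocyte-like cluster had 301 Prss34 and 208 Mcpt8 UMIs, with 21 of Cpa3, 11 of Fcer1a and 7 of Ms4a2, and no UMI of Cd3e, a T cell receptor component. A macrophage or monocyte-like cell had 37 Prss34 and 17 Mcpt8 UMIs, and a dendritic cell-like cell had 29 and 28, both at day 28. Of the barcodes removed as doublets at day 28, 3 had at least 10 UMIs of the pair, 1 with 153 Prss34 and 122 Mcpt8 UMIs among 34889 UMIs, 1 with 57 and 13, and 1 with 0 and 10. At day 0 no such barcode was removed.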
